A study of Mus musculus with 15 samples.

Results

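This is an account of what deletion of RAGE (gene Ager), a receptor for proteins altered by advanced glycation, went with in the aorta of diabetic mice. It compares 4 arrays of diabetic Apoe/RAGE null aorta with 4 arrays of diabetic Apoe null aorta, 8 of the 15 arrays of the study, and covers all 45037 probe sets that are not controls. The arrays were chosen by their titles alone. Each array held RNA from the whole aorta of 1 male mouse on the C57BL/6 background, from the root to the bifurcation, taken at 9 weeks of age.

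All 15 mice were also without apolipoprotein E, which clears lipoproteins from blood, and mice without it develop high cholesterol and atherosclerosis. The diabetic Apoe null group (ApoE-/-, replicates 1 to 4) and the diabetic Apoe/RAGE null group (ApoE-/- RAGE-/-, replicates 9 to 12) received 5 daily injections of streptozotocin at 65 mg/kg into the peritoneum from 6 weeks of age. Streptozotocin destroys the insulin-producing beta cells of the pancreas. The non-diabetic Apoe null group (replicates 5 to 8) and the non-diabetic Apoe/RAGE null group (replicates 13 to 15) received citrate buffer in its place. They serve here for the spread between arrays, for a check of the labels and for the same contrast without diabetes. The labels restrict neither null allele to a cell type. The labels name Jackson labs as the provider of the Apoe null animals and a university laboratory as that of the Apoe/RAGE null animals, so RAGE genotype and colony cannot be told apart in any value below.

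RAGE is a cell surface receptor of the immunoglobulin family that binds proteins modified by advanced glycation, which build up when glucose is high, and also S100 proteins and the chromatin protein HMGB1 once these are outside the cell. Its signalling is known to activate NF-kappaB and oxidant production in endothelium, smooth muscle and macrophages. The aortic wall is built from smooth muscle cells between sheets of elastin, an inner endothelium and an outer adventitia of fibroblasts, with fat around it. The comparison addresses which aortic transcripts differ with RAGE when diabetes is present.

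Values are levels on a log2 scale as deposited, after normalization with RMA, and a difference is the mean of diabetic Apoe/RAGE null minus the mean of diabetic Apoe null on that scale. A difference of 1 is therefore a doubling and one of -1 a halving. A gene was called when its limma p, adjusted by Benjamini-Hochberg over all probe sets, was under 0.05, and "rose" and "fell" are used of called genes alone. Each of 18193 genes was represented by its brightest probe set, by the mean of the 15 arrays. The medians of the 15 arrays lay between 4.35 and 4.42 and their pairwise correlations between 0.972 and 0.997. Levels of different probe sets are not compared with each other.

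Ager itself was measured first. The probe set with the higher signal read 4.36, 4.54, 4.17 and 4.62 in diabetic Apoe null replicates 1 to 4 and 4.63, 4.48, 5.36 and 4.95 in diabetic Apoe/RAGE null replicates 9 to 12. It was not lower where RAGE was deleted (difference 0.43 ± 0.16, SE; limma adjusted p = 0.215), and the groups overlapped. In non-diabetic aorta it read 4.45 to 4.69 in Apoe null and 4.89 to 5.09 in Apoe/RAGE null arrays, without overlap. Replicates 9 and 10 lay within the non-diabetic Apoe null range and replicates 11 and 12 did not, and the difference was 0.74 without replicates 9 and 10 and 0.13 without replicates 11 and 12. The second Ager probe set differed by 0.07 ± 0.13. Whether either lies in the deleted part of the gene is not given in the sources used here. The level alone therefore does not check the deletion.

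Genes that neighbour Ager split the arrays in a similar way, but less clearly for replicate 10. Among 568 genes within 20 Mb of Ager on chromosome 17, 52 had non-overlapping levels in the non-diabetic Apoe null and Apoe/RAGE null arrays. With so few arrays some genes separate by chance, so not all 52 need mark the genotype. Diabetic Apoe null replicates 1 to 4 lay on the side of the non-diabetic Apoe/RAGE null mean in 18, 15, 17 and 14 of these 52. Replicates 11 and 12, labelled Apoe/RAGE null, lay on that side in 38 and 44, but replicates 9 and 10, with the same label, in 9 and 22. Elsewhere 834 genes also had non-overlapping levels in the non-diabetic arrays. Replicates 9 to 12 lay on that side in 37.9%, 45.0%, 48.1% and 60.1% of them. Replicate 9 (17.3%) thus stood with the Apoe null arrays, against its label, in most of the 52 genes. Replicate 10 (42.3%) lay between the diabetic Apoe null arrays (26.9% to 34.6%) and replicates 11 and 12 (73.1% and 84.6%).

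The 6 of these genes with the widest gap between the non-diabetic genotypes are Cyp39a1, an oxysterol hydroxylase, Decr2, a peroxisomal reductase, H2-M3, a non-classical class I antigen-presenting molecule, and the zinc finger genes Zfp945, Zfp994 and Zfp40. Zfp945 read 7.55 to 7.80 in non-diabetic Apoe null arrays and 4.05 to 6.83 in non-diabetic Apoe/RAGE null arrays. It read 8.18 and 8.11 in diabetic replicates 9 and 10 and 5.12 and 3.88 in replicates 11 and 12. The 4 arrays therefore split into 2 pairs here. Replicates 9 and 10 were on the Apoe null side of all 6 genes, with H2-M3 at 7.42 in replicate 10, above every other array. Replicate 11 lay between the ranges of the non-diabetic genotypes in Cyp39a1 (5.39) and H2-M3 (5.80), so the pairs were less distinct there. The group is called diabetic Apoe/RAGE null below as labelled, and the values of the genes given array by array and of the lists are also given without replicates 9 and 10.

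**Figure D1:**
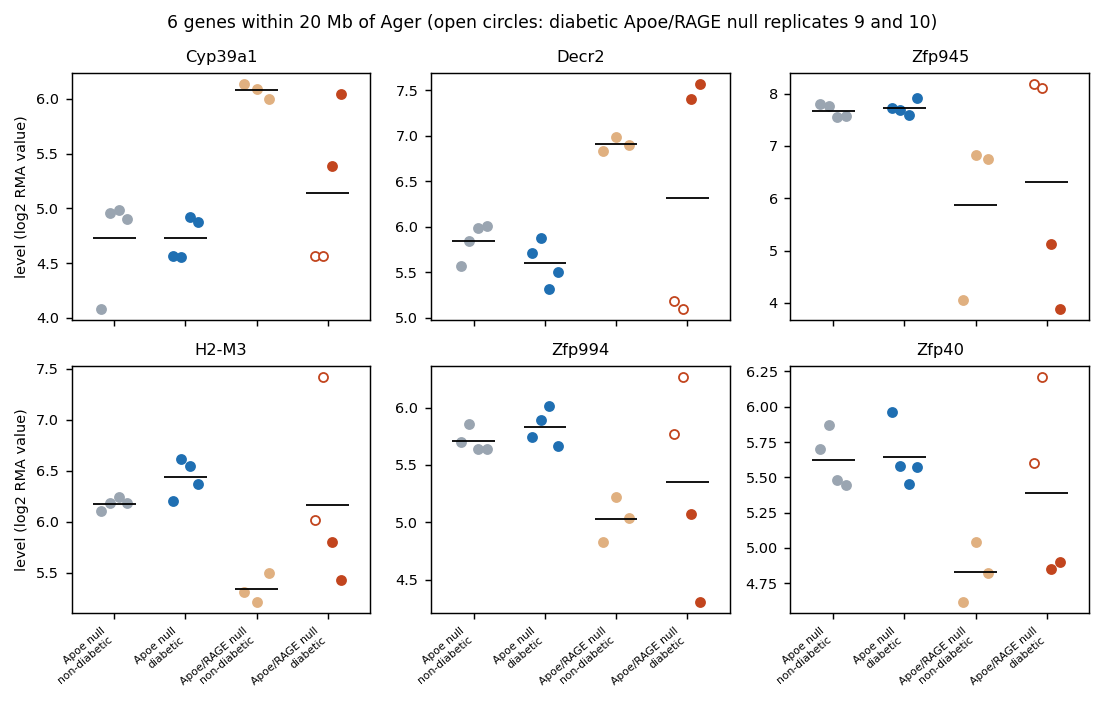
Levels (log2 RMA values, vertical axes) of 6 genes within 20 Mb of Ager on the 15 arrays, grouped by genotype and diabetes along the horizontal axis, with bars at group means. Open circles are diabetic Apoe/RAGE null replicates 9 and 10, which lie with the Apoe null arrays, for example at 5.19 and 5.10 in Decr2 where replicates 11 and 12 read 7.40 and 7.56.

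The arrays also differed in the levels of marker genes of other tissues and cell types. Scores of marker lists, the mean level of a list's genes on an array after each gene was centred on its mean over the 15 arrays, were used to describe this. The skeletal muscle score was -0.70, 0.99, -1.21 and 1.44 in diabetic Apoe null replicates 1 to 4 and 1.48, 0.76, 1.87 and 2.53 in diabetic Apoe/RAGE null replicates 9 to 12. It was thus higher on average with RAGE deletion, and the groups overlapped. Replicate 10 had high scores of MHC class II genes (2.56), of B and plasma cells (2.78) and of T and NK cells (2.28), and replicate 11 of airway and lung (2.05), cardiac muscle (1.38) and nerve (1.21). The defining smooth muscle markers were high on all 8 arrays, with Acta2, smooth muscle actin, between 13.19 and 13.45. In tissue RNA of this kind, fewer cells of a type and less RNA per cell cannot be told apart.

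**Figure D2:**
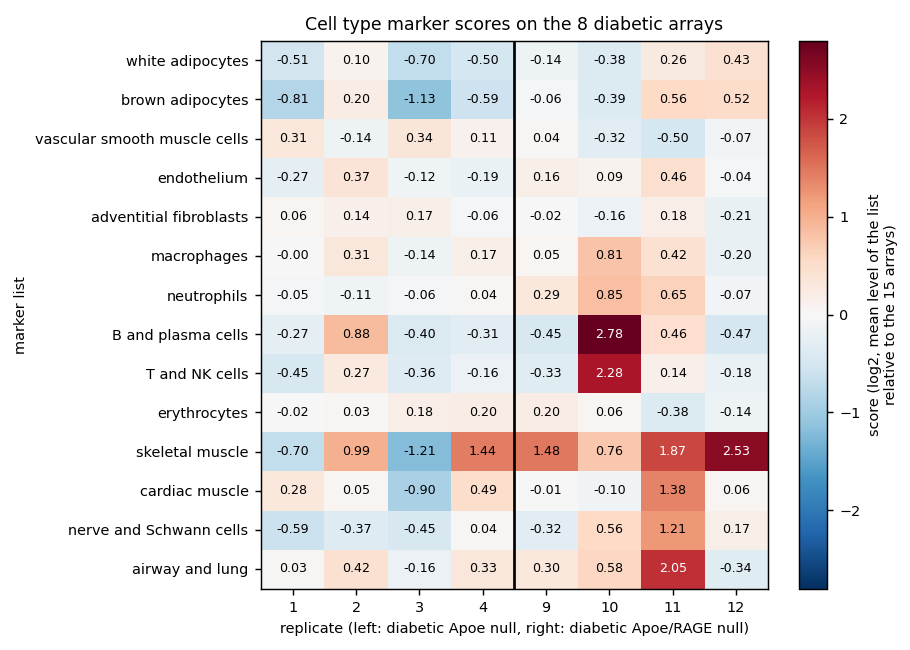
Scores of 14 cell type marker lists (rows; log2, mean level of the list relative to the 15 arrays) on the 8 diabetic arrays (columns, by replicate). Replicate 10 stands out in B and plasma cells (2.78) and T and NK cells (2.28), replicate 11 in airway and lung (2.05), and skeletal muscle scores range from -1.21 to 2.53.

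With all 8 diabetic arrays most called genes were lower in Apoe/RAGE null aorta, a balance that single arrays changed. Of the 18193 genes 57 were called, 0.313%, of which 52 fell (0.286%) and 5 rose (0.0275%). The falls spanned -0.43 to -1.68 with a median of -0.80, whereas all genes had a median difference of -0.0021 and 50.6% lay below 0. The 5 rises spanned 0.52 to 1.96. In 56 of the 57 the 4 arrays of one group did not overlap the 4 of the other, against 1.86% of all genes without overlap on the higher side and 5.86% on the lower side, and the exception was Hspa1b. The calls rest on the difference between these same arrays, so this separation follows largely from the call. Counted by probe set, 110 of 45037 were called (0.244%), 12 higher (0.0266%) and 98 lower (0.218%). At the threshold named in the submitters' notes, a log odds B above 0, the count was 321 (0.713%).

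The calls lay close to the threshold, with limma adjusted p between 0.0356 and 0.0496, and their number depended on single arrays. Without replicates 9 and 10 it was 22 probe sets (0.0488%), 13 lower and 9 higher, and 7 genes (0.0385%), 3 of them, Erdr1, Acot1 and Hspa1b, among the 57. Without replicates 11 and 12 it was 34, 16 lower and 18 higher. Leaving out diabetic Apoe null replicate 1, 3 or 4 left 0 probe sets, and leaving out replicate 2 gave 931, 679 lower and 252 higher. Leaving out Apoe/RAGE null replicates 9, 10, 11 and 12 in turn gave 24 (21 lower), 2 (0 lower), 1 (1 lower) and 31 (23 lower). A fit of the 8 diabetic arrays alone called 0 probe sets, and so did a fit with the skeletal muscle score as a covariate (5819 and 3497 had an unadjusted p under 0.05). The differences themselves kept their sign, which was largely fixed in advance. In 56 of the 57 called genes the groups did not overlap, so leaving out arrays could not reverse the sign. Several other settings reuse the same group means. The 57 called genes differed in the same direction under each of 19 other settings that gave them a value, and the median of the 52 lower genes was -0.79 without replicates 9 and 10 (range -0.35 to -1.80) and -0.83 without replicates 11 and 12. Where 28 called genes had more than 1 probe set, 42 of their 46 other probe sets differed in the same direction and 10 of these were called. The probe sets above 0 against a call on the lower side were of Fkbp14 (0.05), Pdlim5 (0.36), Tmtc3 (0.11) and Adgra3 (0.05).

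**Figure D3:**
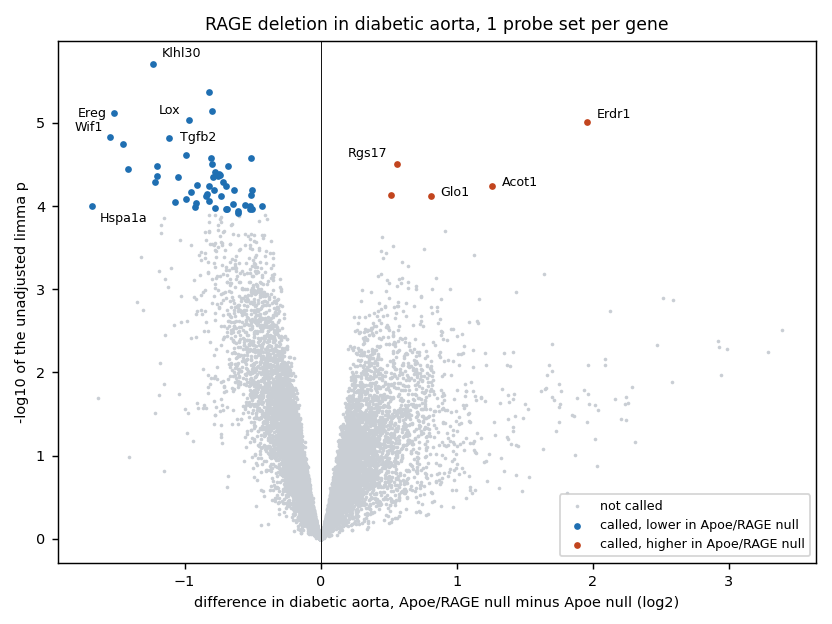
Each of 18193 genes by its difference in diabetic aorta (horizontal axis, Apoe/RAGE null minus Apoe null, log2) and its unadjusted limma p (vertical axis, -log10). The 52 called genes on the lower side lie between -0.43 and -1.68, and the 5 on the higher side between 0.52 and 1.96.

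Genes of inducible heat shock proteins fell. Hspa1a and Hspa1b, neighbouring genes that encode the stress-induced form of the chaperone HSP70, fell, as did Dnaja1, which encodes a J-domain partner that hands clients to HSP70, and Chordc1, which encodes a partner of HSP90. The 4 promoters below, from RefSeq (build GRCm38.p6, 250 bases before to 50 after the start), are printed because these 4 genes fell together and all carry the inverted repeat GAANNTTC of the heat shock element, set in capitals. Chordc1 holds it at 2 places. The Hspa1a and Hspa1b promoters are identical at 296 of their 300 positions.

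Hspa1a promoter, chr17:34972107-34972406, minus strand: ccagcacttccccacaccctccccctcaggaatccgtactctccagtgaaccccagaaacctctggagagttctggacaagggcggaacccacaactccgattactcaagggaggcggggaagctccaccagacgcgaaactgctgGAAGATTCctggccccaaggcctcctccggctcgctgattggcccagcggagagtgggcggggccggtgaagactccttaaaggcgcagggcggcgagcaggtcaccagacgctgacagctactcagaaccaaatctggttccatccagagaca
Hspa1b promoter, chr17:34959189-34959488, minus strand: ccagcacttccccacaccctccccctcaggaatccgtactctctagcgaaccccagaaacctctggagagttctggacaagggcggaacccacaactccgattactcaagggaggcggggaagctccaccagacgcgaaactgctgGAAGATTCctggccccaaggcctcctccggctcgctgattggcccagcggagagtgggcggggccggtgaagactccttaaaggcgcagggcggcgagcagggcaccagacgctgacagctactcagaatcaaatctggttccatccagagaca
Dnaja1 promoter, chr4:40722218-40722517, plus strand: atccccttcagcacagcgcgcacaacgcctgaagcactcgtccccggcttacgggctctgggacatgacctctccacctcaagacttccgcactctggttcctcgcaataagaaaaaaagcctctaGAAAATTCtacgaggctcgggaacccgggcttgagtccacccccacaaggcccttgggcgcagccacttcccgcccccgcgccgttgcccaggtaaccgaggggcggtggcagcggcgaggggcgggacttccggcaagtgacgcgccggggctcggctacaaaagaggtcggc
Chordc1 promoter, chr9:18292017-18292316, plus strand: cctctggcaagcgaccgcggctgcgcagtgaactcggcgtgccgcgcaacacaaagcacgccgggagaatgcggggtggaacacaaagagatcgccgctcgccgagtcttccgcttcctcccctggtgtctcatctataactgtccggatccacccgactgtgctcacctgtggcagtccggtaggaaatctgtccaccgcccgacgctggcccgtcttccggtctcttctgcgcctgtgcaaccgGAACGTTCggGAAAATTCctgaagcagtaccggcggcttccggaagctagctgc

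The motif reads the same on both strands and occurs in 7.95% of the 27025 promoters of the table. Among the 22 measured genes of the list of cytosolic heat shock chaperones, 19 had a promoter in the table and 9 of these held it. Of the 52 genes that fell, 37 had a promoter, and it was found in 7, the 4 above and 3 of the 33 others. The other arrangement of the element, TTCNNGAA, was in 8.4% of all promoters, in 3 of the 19 and in 3 of the 37. The motifs can overlap each other, and a match describes the letters only.

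Hspa1a read 10.03, 8.97, 10.27 and 9.95 in diabetic Apoe null replicates 1 to 4 and 8.89, 7.60, 7.80 and 8.21 in diabetic Apoe/RAGE null replicates 9 to 12. Apoe null replicate 2 was lowest in its group and Apoe/RAGE null replicate 9 highest in its own, and they nearly met. Hspa1a fell by 1.68 ± 0.32 (SE), a 3.20-fold lower level (limma adjusted p = 0.0469; -1.80 without replicates 9 and 10).

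Hspa1b followed the same arrays, at 11.57, 10.63, 11.51 and 11.62 against 10.65, 9.71, 9.71 and 9.60. Replicate 2 of the first group and replicate 9 of the second overlapped by 0.02. All 3 Hspa1b probe sets fell, by 1.41 to 1.88, and without replicates 9 and 10 the difference was -1.68 and still called. Probe sets of these near-identical genes may read both transcripts, so they are not independent.

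Dnaja1 was at 10.09, 9.94, 9.81 and 9.83 in diabetic Apoe null and at 9.13, 9.01, 9.64 and 9.11 in diabetic Apoe/RAGE null aorta. Replicate 11 was nearest to the first group and the groups did not overlap. Dnaja1 fell by 0.70 ± 0.12 (SE; limma adjusted p = 0.0432; -0.54 without replicates 9 and 10). Its other probe sets, at -0.51 and -0.35, were not called, and the groups overlapped in the latter. Chordc1 had 8.39, 8.25, 8.22 and 8.29 against 7.73, 7.77, 7.93 and 7.67, with no overlap, and fell by 0.51 ± 0.09 (-0.49 without replicates 9 and 10).

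Across the list of cytosolic heat shock chaperones 20 of 22 measured members were below 0, with a median of -0.33 (-0.29 without replicates 9 and 10). Of the 22, 4 fell, where 0.286% of all genes did, and 0 rose, and Hspa1a and Hspa1b lie within 20 Mb of Ager. The lists were chosen with earlier results of these data known. A list's share beside that of all genes, here and below, is therefore a description and not a test. Hsph1, an HSP110 nucleotide exchange factor for HSP70, was next at -0.88 ± 0.19 (SE; limma adjusted p = 0.0659), with non-overlapping groups. Hspb2, a small heat shock protein of muscle outside the list, fell by 0.92 ± 0.17. Chaperones of the endoplasmic reticulum and genes of the unfolded protein response were below 0 in 19 of 21, with a median of -0.22 (-0.21 without replicates 9 and 10), and 0 were called. Hspa5, the HSP70 of the endoplasmic reticulum, was at -0.36 ± 0.14, and Creld2, a secretory stress gene, at -0.58 ± 0.15.

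Secreted regulators of Wnt signalling were among the largest falls. Wnt proteins act through Frizzled receptors and beta-catenin, and Wif1 and Sfrp2 encode secreted proteins that bind Wnts outside the cell. Wif1 read 8.04, 7.16, 8.09 and 7.99 in diabetic Apoe null and 6.30, 5.90, 6.36 and 6.51 in diabetic Apoe/RAGE null aorta. Replicate 2 stood below its group, yet above all 4 Apoe/RAGE null arrays. Wif1 fell by 1.55 ± 0.24 (SE; limma adjusted p = 0.0377), to a 2.93-fold lower level, and differed by -1.38 without replicates 9 and 10.

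Sfrp2 was at 9.68, 9.25, 10.02 and 9.58 against 8.56, 8.06, 8.86 and 8.24, again without overlap, and fell by 1.20 ± 0.21 (-1.08 without replicates 9 and 10). Trabd2b, a membrane protease that inactivates Wnt proteins, fell by 0.61 ± 0.12. Of the 19 measured Wnt antagonists and targets 14 were below 0 (median -0.21; -0.29 without replicates 9 and 10; -0.36 without replicate 2), and Wif1 and Sfrp2 were the 2 that fell. Ccn5, a matricellular Wnt target, was at -0.82 ± 0.17 (limma adjusted p = 0.0577), and the soluble Frizzled-related inhibitor Frzb at -0.57 ± 0.14.

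Growth factors of other families fell as well. Ereg encodes epiregulin, a ligand of the EGF receptor. Its level was 5.86, 5.53, 6.27 and 6.11 in diabetic Apoe null and 4.56, 4.12, 4.30 and 4.71 in diabetic Apoe/RAGE null aorta, with a gap between the groups of more than the range of either one. Ereg fell by 1.52 ± 0.23 (SE; limma adjusted p = 0.0356; -1.44 without replicates 9 and 10). Of the 10 measured EGF family ligands and receptors it was the 1 called, 6 being below 0 with a median of -0.07, which was -0.06 without replicates 9 and 10, -0.17 with the skeletal muscle score as a covariate and 0.02 without replicate 3. Hbegf, another ligand, was at -1.32 ± 0.29 (limma adjusted p = 0.068) with non-overlapping groups while its second probe set, at -1.28 ± 0.24, was called, and the receptor Egfr at -0.41 ± 0.12. The ligands Tgfa (0.18 ± 0.24), Egf (0.18 ± 0.25), Btc (-0.14 ± 0.25) and Nrg1 (0.01 ± 0.10) and the receptors Erbb2 (-0.21 ± 0.11), Erbb3 (0.81 ± 0.27) and Erbb4 (-0.01 ± 0.08) were not called.

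Tgfb2, a TGF-beta ligand, read 8.78, 8.16, 9.07 and 8.79 in diabetic Apoe null aorta. In diabetic Apoe/RAGE null aorta it read 7.92, 7.18, 7.55 and 7.68. Replicate 2 was again the lowest of its group, and the groups did not overlap. Tgfb2 fell by 1.12 ± 0.18 (SE; limma adjusted p = 0.0377; -1.08 without replicates 9 and 10), and its 4 probe sets were all below 0, at -0.78 to -1.25, with 1 called.

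TGF-beta signals through serine kinase receptors and SMAD proteins to genes of the matrix. In the list of TGF-beta signalling and targets 17 of 19 were below 0, with a median of -0.30 (-0.31 without replicates 9 and 10), Tgfb2 fell and 0 rose. Ccn2, connective tissue growth factor, was at -0.80 ± 0.20, the ligand Tgfb3 at -0.60 ± 0.18, the receptor Tgfbr1 at -0.47 ± 0.14 and the SMAD inhibitor Skil at -0.46 ± 0.11, with limma adjusted p between 0.0793 and 0.151. Pdgfd, a platelet-derived growth factor that acts on smooth muscle cells and fibroblasts, fell by 0.81 ± 0.13, with 2 of its 3 probe sets called. Scube3, a secreted and membrane-bound glycoprotein with EGF-like repeats, fell by 1.45 ± 0.23, with 8.97, 8.45, 9.28 and 9.10 against 7.87, 7.10, 7.36 and 7.66 and no overlap (-1.44 without replicates 9 and 10).

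**Figure D4:**
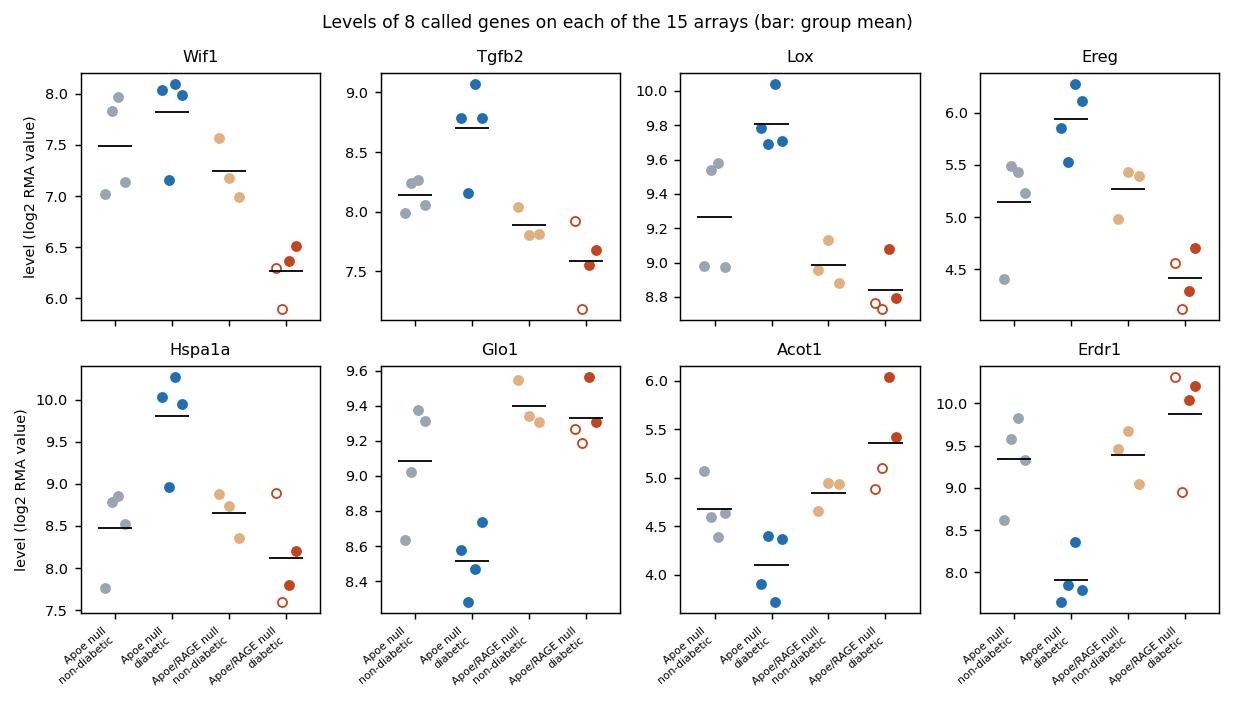
Levels (log2 RMA values, vertical axes) of 8 called genes on the 15 arrays, grouped by genotype and diabetes along the horizontal axis, with bars at group means and open circles for diabetic Apoe/RAGE null replicates 9 and 10. In the diabetic aorta Wif1, Tgfb2, Lox, Ereg and Hspa1a are lower and Glo1, Acot1 and Erdr1 higher in Apoe/RAGE null arrays, and the 2 diabetic groups do not overlap in any of the 8.

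Among the matrix lists Lox was the 1 called gene. Lox encodes lysyl oxidase, which crosslinks collagen and elastin fibres. It read 9.79, 9.69, 10.04 and 9.71 in diabetic Apoe null and 8.76, 8.73, 9.08 and 8.79 in diabetic Apoe/RAGE null aorta, so the 2 groups lay well apart. Lox fell by 0.96 ± 0.15 (SE; limma adjusted p = 0.0356), with 2 of its 3 probe sets called and the third at -0.28. Without replicates 9 and 10 the difference was -0.87.

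Among 16 genes of crosslinking and collagen processing 14 were below 0 (median -0.36; -0.40 without replicates 9 and 10; -0.23 with the skeletal muscle score as a covariate). Non-overlapping groups were found in 5, where 5.86% of all genes had them on the lower side. The hydroxylases P4ha1 (-0.77 ± 0.17), P3h2 (-0.85 ± 0.18) and Plod2 (-0.69 ± 0.16), which modify collagen chains in the endoplasmic reticulum, and Crtap (-0.45 ± 0.11), part of a prolyl hydroxylase complex, had limma adjusted p between 0.0659 and 0.0924. Fkbp14, a prolyl isomerase of the endoplasmic reticulum that acts on collagens, fell by 0.79 ± 0.14, but its other probe set was at 0.05.

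Elastic fibre and fibrillar matrix genes had a median of -0.44 (-0.39 without replicates 9 and 10, -0.28 with the skeletal muscle score as a covariate, and -0.14 in the non-diabetic comparison). Of 26 measured members 23 were below 0 and 10 had non-overlapping groups (38.5%, against 5.86% of all genes), but 0 were called. This list too was chosen with earlier results known, so the share tests nothing. Eln, elastin itself, read 12.00, 11.72, 12.20 and 11.64 against 10.89, 10.87, 11.26 and 10.97 (-0.89 ± 0.20, SE; limma adjusted p = 0.0671). Thbs1, thrombospondin, was at -1.17 ± 0.24, the fibrillar collagen Col5a2 at -0.71 ± 0.15, and the microfibril proteins Mfap4 and Mfap5 at -0.69 ± 0.16 and -0.60 ± 0.13. Small proteoglycans and hyaluronan genes were below 0 in 11 of 13 (median -0.34; -0.27 without replicates 9 and 10; -0.20 with the skeletal muscle covariate), with 0 called, Fmod at -0.60 ± 0.16 and Vcan at -0.66 ± 0.17.

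Enzymes that build sugar chains were also among the called genes. Chsy1, a synthase of chondroitin sulfate, fell by 0.82 ± 0.15, and Ext1, a polymerase of heparan sulfate, by 0.61 ± 0.12. Gmds, which makes GDP-fucose precursors, fell by 0.52 ± 0.10, Tmtc3, a protein mannosyltransferase, by 0.51 ± 0.10 and Pigm, which acts in glycolipid anchor synthesis, by 0.69 ± 0.13. Of the secretory pathway, Sec23a, a coat protein of vesicles leaving the endoplasmic reticulum, fell by 0.55 ± 0.10 and Kdelr3, a retrieval receptor, by 0.77 ± 0.15. No list of such genes was drawn up, and these are named as called genes only.

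Matrix proteases and their inhibitors, 25 in all, held 20 below 0 (median -0.19; -0.23 without replicates 9 and 10; -0.11 with the skeletal muscle covariate) and 0 called. Timp4, an inhibitor of matrix metalloproteinases, was the highest, at 7.93, 8.83, 7.86 and 8.09 against 9.11, 9.23, 9.14 and 8.89 (0.91 ± 0.19, SE; limma adjusted p = 0.0577). The urokinase receptor gene Plaur was at -0.59 ± 0.13 and cathepsin K, Ctsk, at -0.43 ± 0.12.

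Tnfrsf12a and Hdac9 also fell. Tnfrsf12a, the receptor of the cytokine TWEAK, was at 9.25, 8.64, 9.06 and 8.61 in diabetic Apoe null and at 7.95, 7.12, 7.58 and 8.03 in diabetic Apoe/RAGE null aorta. The groups did not overlap, and both of its probe sets fell, by 1.22 ± 0.22 for the one that stands for the gene (-1.08 without replicates 9 and 10). Hdac9, a class IIa histone deacetylase that represses MEF2 transcription factors, read 6.64, 6.20, 6.42 and 6.49 against 5.30, 5.29, 5.15 and 5.83 and fell by 1.05 ± 0.18 (-0.95 without replicates 9 and 10). Its second probe set was at -0.22 and was not called. Of the 8 class IIa deacetylase and Mef2 genes 7 were below 0 (median -0.21; -0.23 without replicates 9 and 10; -0.13 with the skeletal muscle covariate), and Hdac9 was the 1 called. Hdac4, Hdac5 and Hdac7 were at -0.02 ± 0.13, -0.31 ± 0.18 and -0.05 ± 0.13, and Mef2a, Mef2b, Mef2c and Mef2d at -0.26 ± 0.10, 0.08 ± 0.11, -0.29 ± 0.14 and -0.17 ± 0.09.

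Klhl30, a kelch family protein, had the smallest p on the lower side, with 7.17, 6.74, 7.40 and 7.32 against 6.04, 5.58, 6.01 and 6.05, and fell by 1.23 ± 0.16 (SE; limma adjusted p = 0.0356; -1.13 without replicates 9 and 10). Stum, named for a mechanosensory gene of Drosophila, fell by 1.20 ± 0.20, from 7.54 to 8.36 in diabetic Apoe null to 6.59 to 6.88 in diabetic Apoe/RAGE null aorta. Ptprz1, a receptor tyrosine phosphatase, went from 9.41 to 9.81 down to 8.45 to 8.90 and fell by 0.99 ± 0.18. None of the 3 overlapped between the groups. Cdr2 fell by 0.99 ± 0.16, with 8.42 to 9.06 against 7.62 to 8.19, and Efhc2, an EF-hand protein, by 1.07 ± 0.20, with 5.03 to 5.40 against 3.82 to 4.46. Without replicates 9 and 10 the differences of Stum, Ptprz1, Cdr2 and Efhc2 were -1.13, -1.09, -1.13 and -1.05.

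The remaining falls were drawn from no list and are named as called genes. They include Kcnab1, a potassium channel subunit (-0.95), Chrna1, a subunit of the muscle acetylcholine receptor (-0.84), Pip5k1b, a phosphoinositide kinase (-0.82, with all 3 probe sets called), Adgra3, an adhesion receptor (-0.65), and Sgce, a sarcoglycan (-0.50). Of metabolism and vitamin pathways, Bdh1, which oxidises the ketone body beta-hydroxybutyrate, differed by -0.90, Cyp26b1, which degrades retinoic acid, by -0.75 and Ggh, which acts on folates, by -0.51. Of the nucleus and the cytoskeleton, Tshz3 (-0.68) and Zfp9 (-0.73) are zinc finger genes, Med21 (-0.43) belongs to the Mediator complex, and Pdlim5 (-0.70) and Wtip (-0.74) encode LIM domain proteins. Pamr1 (-0.92), Maged2 (-0.84), Gask1b (-0.80), Hoxb5os (-0.80), Triqk (-0.79), Tmem45a (-0.77), Wdr95 (-0.76), Tmem263 (-0.72), Ppp1r26 (-0.64) and Tmem185b (-0.52) complete the falls, with 1 gene of provisional symbol.

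No smooth muscle gene of the lists was called. Of 16 contractile genes 15 were below 0 (median -0.34; -0.39 without replicates 9 and 10; -0.19 with the skeletal muscle score as a covariate; 0.00 in the non-diabetic comparison) and 0 were called. Actg2, smooth muscle gamma actin, was at -0.64 ± 0.19, Synpo2 at -0.63 ± 0.21, Cnn1, calponin, at -0.51 ± 0.19 and the integrin Itga8 at -0.44 ± 0.14. All 8 defining markers of vascular smooth muscle were below 0 (median -0.35; -0.40 without replicates 9 and 10; -0.18 with that covariate), among them Myocd, the transcription factor myocardin (-0.76 ± 0.27), Smtn (-0.55 ± 0.22), Myh11 (-0.26 ± 0.14), Tagln (-0.17 ± 0.10), Lmod1 (-0.13 ± 0.18) and Acta2 (-0.12 ± 0.07). Their score was 0.31, -0.14, 0.34 and 0.11 in diabetic Apoe null and 0.04, -0.32, -0.50 and -0.07 in diabetic Apoe/RAGE null arrays. Their part in the falls of other genes was not tested.

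YAP and SRF are regulators that respond to tension on the cell and switch on cytoskeletal genes. Of 19 YAP and SRF regulators and targets 17 were below 0 (median -0.34; -0.36 without replicates 9 and 10), with 0 called, Vcl, vinculin, at -0.62 ± 0.15, Srf at -0.60 ± 0.18 and the kinase Lats2 at -0.45 ± 0.11. Immediate early genes, which respond within minutes to stimulation and to tissue handling, were below 0 in 21 of 22 (median -0.39; -0.56 without replicates 9 and 10), with 0 called and 0 without overlap. Atf3 shows the spread, with 6.25, 6.51, 9.23 and 9.21 in diabetic Apoe null and 7.61, 5.66, 5.78 and 5.60 in diabetic Apoe/RAGE null aorta. Apoe null replicates 3 and 4 were high, and the difference of -1.64 ± 0.63 did not pass (limma adjusted p = 0.237). The score of the list was 0.09, -0.12, 0.62 and 0.66 against 0.20, -0.16, -0.21 and -0.55.

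Few genes rose. Erdr1, whose product is known as an erythroid differentiation regulator, read 7.65, 7.85, 8.36 and 7.79 in diabetic Apoe null and 10.31, 8.94, 10.04 and 10.20 in diabetic Apoe/RAGE null aorta. Replicate 10 was the lowest of its group and still above all Apoe null arrays. Erdr1 rose by 1.96 ± 0.30 (SE; limma adjusted p = 0.0356), a 3.89-fold higher level, and by 2.21 without replicates 9 and 10, where it was still called. The call rests on a probe set that can share probes with other transcripts, and the other Erdr1 probe set differed by 0.28 and was not called.

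Acot1 encodes a thioesterase that splits long-chain acyl-CoA into fatty acid and CoA in the cytosol. It was at 3.90, 4.40, 3.72 and 4.37 in diabetic Apoe null and at 4.88, 5.10, 6.04 and 5.42 in diabetic Apoe/RAGE null aorta, without overlap. Acot1 rose by 1.26 ± 0.23 (SE; limma adjusted p = 0.0432), and by 1.63 without replicates 9 and 10, where it was still called. Its mitochondrial paralog Acot2 was at 0.64 ± 0.22 and was not called.

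Glo1 encodes glyoxalase 1, which clears methylglyoxal, the reactive sugar by-product from which many advanced glycation end products form. It read 8.58, 8.28, 8.47 and 8.74 in diabetic Apoe null and 9.27, 9.19, 9.56 and 9.31 in diabetic Apoe/RAGE null aorta, with no overlap. Replicates 9 and 10 were like replicates 11 and 12 on this probe set, but lower than them on each other Glo1 probe set. The dimmest read 5.97 and 5.95 in replicates 9 and 10 and 6.75 and 6.65 in replicates 11 and 12. The diabetic Apoe null arrays read 6.04 to 6.32 there. Glo1 rose by 0.81 ± 0.15 (SE; limma adjusted p = 0.0437), and its 4 probe sets were all above 0, at 0.17 to 0.81, with 1 called. Without replicates 9 and 10 the difference was 0.92 and not called (limma adjusted p = 0.0915). Glo1 lies within 20 Mb of Ager and differed by 0.31 without diabetes.

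The remaining members of the methylglyoxal and polyol list, Hagh (0.20 ± 0.20), Dcxr (0.12 ± 0.15), Akr1a1 (-0.11 ± 0.07) and Akr1b8 (-0.20 ± 0.13), were not called, and the list's median of 0.12 was 0.04 without replicates 9 and 10 and -0.08 without replicates 11 and 12. Rgs17, a regulator of G protein signalling, rose by 0.56 ± 0.09, with 3.89 to 4.03 against 4.34 to 4.79. Eepd1, an endonuclease family gene, rose by 0.52 ± 0.10, with 4.79 to 5.15 against 5.33 to 5.68. The differences were 0.67 and 0.54 without replicates 9 and 10. In both the groups did not overlap, and the second probe set of each, at 0.09 and 0.17, was not called. Of the 57 called genes 5 lie within 20 Mb of Ager (Glo1, Hspa1a, Hspa1b, Scube3 and Tnfrsf12a), 8.77% against 3.12% of all genes.

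The genes next in order of p on the higher side did not pass. Besides Timp4 these were Sgo2a (0.45 ± 0.09), Ngp, a neutrophil granule protein (0.53 ± 0.11), Nampt, which makes NAD (0.76 ± 0.16), Ninl (0.48 ± 0.10), Prodh, proline dehydrogenase (1.13 ± 0.25), H6pd, a hexose-6-phosphate dehydrogenase of the endoplasmic reticulum (0.46 ± 0.10), Grina (0.60 ± 0.13), Mtmr14 (0.64 ± 0.15) and Aspg, an asparaginase (1.64 ± 0.38). Their limma adjusted p lay between 0.0577 and 0.0802. None of the 10 overlapped between the groups, where 1.86% of all genes had no overlap on the higher side. They were picked by their small p, so this separation follows largely from the choice.

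Lipid and energy genes had higher means with RAGE deletion, and more so in replicates 11 and 12 than in 9 and 10. All 17 lipogenesis genes and SREBP1 targets were above 0 with a median of 0.68, yet 0 were called. Non-overlapping groups were found in 3, where 1.86% of all genes had them on the higher side. Fasn, fatty acid synthase, read 9.91, 9.99, 9.36 and 9.53 in diabetic Apoe null and 10.97, 10.34, 10.39 and 11.76 in diabetic Apoe/RAGE null aorta (1.17 ± 0.29, SE; limma adjusted p = 0.0978). Replicate 12 was the highest, and both groups stayed under the non-diabetic means of 12.03 and 12.08. Acacb and Acaca, the acetyl-CoA carboxylases, were at 1.43 ± 0.35 and 0.93 ± 0.27.

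Fatty acid oxidation (16 of 18 above 0; median 0.64), oxidative phosphorylation (20 of 21; 0.42), white adipocyte (12 of 13; 0.52) and brown adipocyte genes (9 of 11; 0.75) lay higher in the same way. Acot1, of the fatty acid oxidation list, was the 1 called gene of these 4 lists. Oxidative phosphorylation shows the arrays behind it, with scores of -0.41, 0.15, -0.60 and -0.41 in diabetic Apoe null and -0.12, -0.25, 0.38 and 0.33 in diabetic Apoe/RAGE null aorta. Apoe null replicate 2 lay above replicates 9 and 10, so the groups overlapped.

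The size of these shifts depended on which pair of Apoe/RAGE null arrays was used. Without replicates 9 and 10 the medians were 0.98 for lipogenesis, 1.07 for fatty acid oxidation, 0.69 for oxidative phosphorylation, 0.87 for white and 1.31 for brown adipocyte genes. Without replicates 11 and 12 they were 0.25, 0.16, 0.15, 0.18 and 0.36. The white adipocyte median was 0.32 without replicate 3 and 0.34 without replicate 12. The white adipocyte score was -0.51, 0.10, -0.70 and -0.50 against -0.14, -0.38, 0.26 and 0.43. With the skeletal muscle score as a covariate the medians of these 5 lists were 0.42, 0.34, 0.14, 0.22 and 0.40, and 0 probe sets were called.

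**Figure D5:**
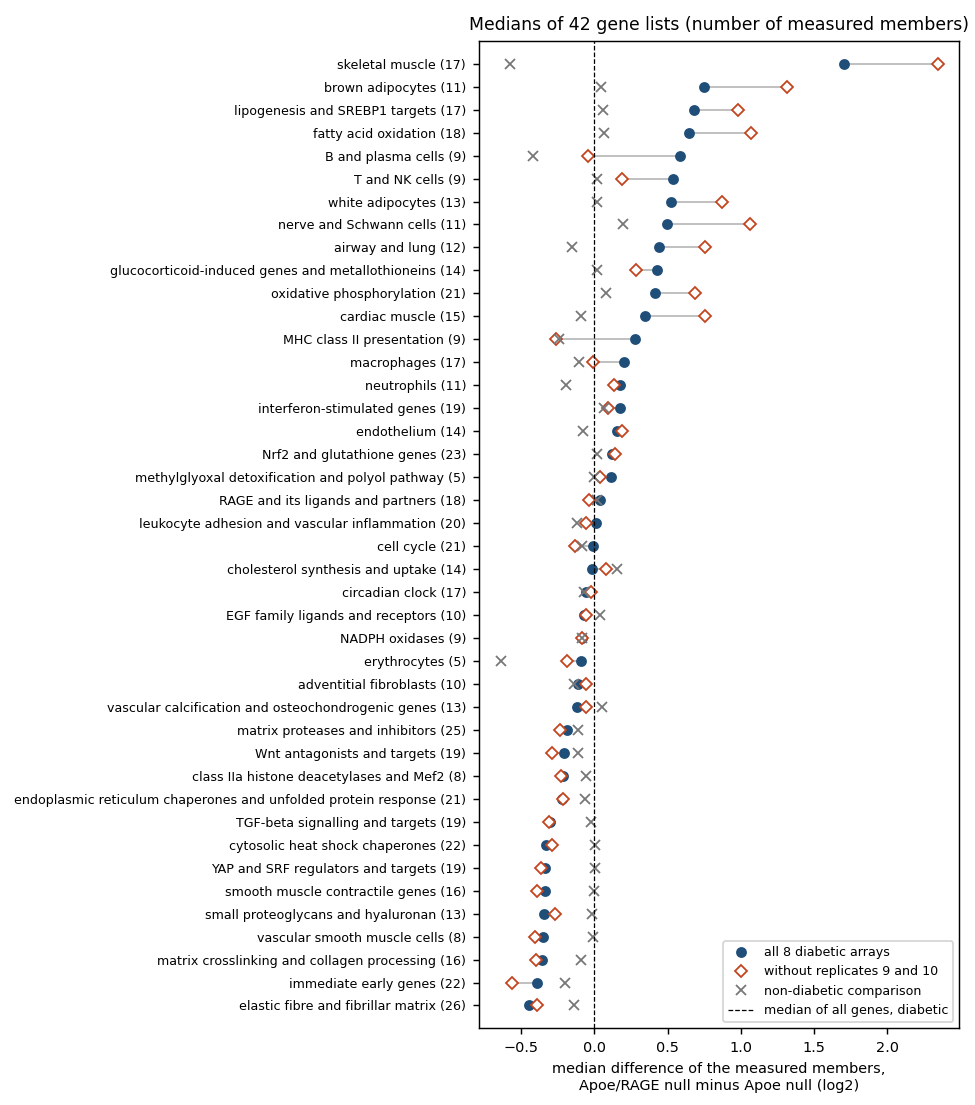
Median difference of the measured members of 42 gene lists (horizontal axis, Apoe/RAGE null minus Apoe null, log2), with all 8 diabetic arrays (filled circles), without replicates 9 and 10 (open diamonds) and in the non-diabetic comparison (crosses). With all 8 arrays the medians run from -0.44 (elastic fibre and fibrillar matrix) to 1.70 (skeletal muscle), and MHC class II moves from 0.28 to -0.26 without replicates 9 and 10.

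The ligands and partners of RAGE were not called. Of 18 measured members 12 were above 0, with a median of 0.04 that lay on either side of 0 with single arrays left out and was -0.04 without replicates 9 and 10. It ranged from -0.02 without replicate 10 to 0.21 without replicate 12. S100a4 was lower in every Apoe/RAGE null array, with 10.99, 10.53, 10.79 and 11.03 against 10.32, 10.41, 9.93 and 9.84 (-0.71 ± 0.14, SE; limma adjusted p = 0.0578; -0.95 without replicates 9 and 10). S100a6 was at -0.37 ± 0.12 and Ddost, a subunit of the complex that attaches sugars to proteins, at -0.23 ± 0.09, also without overlap. Hmgb2, a chromatin protein related to HMGB1, was at 0.80 ± 0.27.

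Oxidant and inflammatory genes downstream of RAGE in other settings were also not called. Of 9 NADPH oxidase genes 5 were below 0 (median -0.09; -0.08 without replicates 9 and 10). That median turned to 0.10 without replicates 11 and 12, 0.06 with the skeletal muscle covariate, 0.05 with dim probe sets left out and 0.06 with cross-hybridising probe sets left out. The list held Nox4, the main form of vascular smooth muscle, at -0.53 ± 0.21 and Noxo1 at -0.50 ± 0.17. Of 20 genes of leukocyte adhesion and vascular inflammation 11 were above 0 (median 0.01; -0.06 without replicates 9 and 10), with Selp, P-selectin, at -0.67 ± 0.22 and Ptgs2, cyclooxygenase-2, at -1.15 ± 0.41. Nrf2 and glutathione genes (16 of 23 above 0; median 0.12; 0.14 without replicates 9 and 10; -0.0006 without replicates 11 and 12) held extracellular superoxide dismutase, Sod3, at -0.47 ± 0.16 and catalase, Cat, at 0.42 ± 0.14. Genes of vascular calcification were below 0 in 8 of 13 (median -0.12; -0.06 without replicates 9 and 10; -0.42 with dim probe sets left out), with Ank, a pyrophosphate transporter, at -0.47 ± 0.11.

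Glucocorticoid-induced genes and metallothioneins were above 0 in 11 of 14 (median 0.43; 0.28 without replicates 9 and 10; 0.24 without replicate 3; 0.18 with the skeletal muscle score as a covariate), with 0 called. Within 20 Mb of Ager lie 4 of the 14, against 3.12% of all genes. Mt1, a metal-binding protein, read 11.73, 11.46, 10.78 and 11.24 against 12.31, 12.16, 11.74 and 11.97, which did not overlap (0.74 ± 0.19, SE; limma adjusted p = 0.0961). Fkbp5, a feedback regulator of the glucocorticoid receptor, was at 0.91 ± 0.31. Clock genes were at a median of -0.06 over 17, which changed sign without replicate 1, 10 or 11 (0.02, 0.01 and 0.01) and was -0.02 without replicates 9 and 10, with Clock itself at -0.50 ± 0.12. Cholesterol synthesis and uptake genes divided evenly, 7 above and 7 below 0 (median -0.02; 0.08 without replicates 9 and 10), with Fdft1, squalene synthase, at 0.54 ± 0.14.

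Genes of MHC class II, of B and plasma cells and of T and NK cells followed replicate 10. MHC class II genes were all above 0 (9 of 9, median 0.28), but the median was -0.38 without replicate 10 and -0.26 without replicates 9 and 10. Of these 9 genes, 7 lie within 20 Mb of Ager, the region used above to check the labels, where 3.12% of all genes lie. H2-Aa, a class II chain, read 8.28, 9.87, 8.82 and 8.99 in diabetic Apoe null and 8.01, 11.03, 9.27 and 7.95 in diabetic Apoe/RAGE null aorta. Replicate 10 was the highest and Apoe null replicate 2 the second highest. B and plasma cell genes (7 of 9 above 0; median 0.58) gave -0.17 and T and NK cell genes (9 of 9; 0.54) 0.12 without replicate 10. These medians were -0.04 and 0.19 without replicates 9 and 10. Neutrophil genes (10 of 11 above 0; median 0.18) changed less, to 0.14 without replicate 10 and 0.13 without replicates 9 and 10. Their median was 1.05 with dim probe sets left out.

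Macrophage genes (13 of 17 above 0; median 0.20) gave -0.02 without replicate 10, -0.01 without replicates 9 and 10 and 0.41 without replicate 12, and Cd163, a marker of resident macrophages, was at 0.42 ± 0.15. Interferon-stimulated genes were above 0 in 18 of 19 (median 0.18; 0.09 without replicates 9 and 10), with Usp18 at 0.61 ± 0.22. Endothelial genes were above 0 in 9 of 14 (median 0.15; 0.19 without replicates 9 and 10; 0.06 without replicate 1 and 0.29 without replicate 2 or replicate 12), with the VEGF receptor Flt1 at 0.57 ± 0.17 and non-overlapping groups. Adventitial fibroblast genes had a median of -0.11 over 10 (-0.06 without replicates 9 and 10; -0.03 without replicate 10; -0.20 without replicate 4). None of these lists held a called gene, and the part of cell content in them was not tested.

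Without diabetes the same contrast called 0 of 45037 probe sets in limma (1159 had an unadjusted p under 0.05, and 0 had a B above 0). The 2 comparisons share no array. Of the 52 genes that fell in diabetic aorta 38 (73.1%) were also below 0 in non-diabetic aorta, where 49.4% of all genes were, but their median there was -0.09. In all 52 the diabetic Apoe null mean was the highest of the 4 group means, and in 49 the diabetic Apoe/RAGE null mean was the lowest. Hspa1a, for example, had means of 8.48 and 8.66 in the non-diabetic Apoe null and Apoe/RAGE null groups, between the diabetic means of 9.80 and 8.12. The 52 genes were chosen by the difference between the 2 diabetic means, so this order is in part built in.

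The test of whether the RAGE difference itself depended on diabetes called 0 probe sets (3251 had an unadjusted p under 0.05, and 0 had a B above 0). The largest interaction estimates of the described genes were 1.91 ± 0.44 (SE) for Erdr1, -1.86 ± 0.47 for Hspa1a and -1.65 ± 0.33 for Ereg. Over the 57 called genes the interaction's limma adjusted p lay between 0.675 and 0.824, so none of them was shown to respond to RAGE deletion differently with and without diabetes. Klhl30 (-0.53), Ptprz1 (-0.50) and Rgs17 (0.40) had the largest non-diabetic differences in the direction of the diabetic ones among the genes described array by array.

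Apoe null replicate 2 stood apart among the diabetic controls. In 43 of the 52 genes that fell it was the lowest of the 4 diabetic Apoe null arrays, against 30.1% of all genes. Replicate 10 was the lowest of the diabetic Apoe/RAGE null arrays in 26 of the 52. The share of all genes in which replicate 10 was lowest was not computed, so that count has no background. The oxidative phosphorylation (0.15) and brown adipocyte (0.20) scores of replicate 2 were above those of the other 3 diabetic Apoe null arrays. Those lay at -0.60 to -0.41 and -1.13 to -0.59. Their part in the calls was not tested.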

How the data were processed

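Total RNA of 15 mouse aortas was hybridised to 1-colour Affymetrix arrays, 1 mouse per array. The deposited values are on the log2 scale after the authors' RMA step (submitters' processing notes). Scan dates, and whether RMA was run once for all arrays, are not given in the sources used here. Precision is limited by how many arrays there are.

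Of 45101 probe sets 64 controls were left out. Names came from the platform annotation of 2016, updated by Entrez ID for 34741 probe sets. Of those tested, 34945 carried 1 gene, 932 several and 9160 none. All 15 arrays entered 1 fit of group means (11 residual degrees of freedom) with limma version 3.58.1, run under R version 4.3.3, with eBayes and Benjamini-Hochberg adjustment over 45037 probe sets. The values are the authors' own, with no further filter or normalization.

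Genes given array by array were up to 10 called genes by size of increase, 14 by size of decrease, plus called genes in a list. Other called genes, the 5 list members with the smallest p (all members of lists of up to 10) and the genes on the higher side up to 15 were open to naming with a difference. The members and the 42 lists were chosen with earlier results of these data known. Alternatives are in the closing section. On simulated data (5 draws, 200 changed probe sets of 45037, diabetic comparison) the model recovered 38.5%, 89.9% and 98.2% of log2 changes of 0.5, 1 and 2. In these draws 4.68% of calls were false. Both results describe the simulated draws alone. The number of real calls depended on single arrays, and the false share among them was not estimated. Figures were drawn with matplotlib 3.10.9.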

Additional observations from a re-analysis of the deposited data

Results flagged for a closer look

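Of 200 sets of 4 arrays examined, 14 (7.0%) held an array whose gap to its nearest neighbour exceeded Dixon's critical share of the range of the set, where chance gives about 1 in 20. Among the called genes, diabetic Apoe null replicate 2 stood below its group in Wif1 (7.16), Hspa1b (10.63) and Hspb2 (7.74), and replicate 4 stood apart in Chrna1 (5.31). Of the diabetic Apoe/RAGE null arrays, replicate 9 stood above the others in Hspa1b (10.65) and replicate 10 below them in Klhl30 (5.58) and Stum (6.59).

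Among list scores, diabetic Apoe null replicate 2 stood apart in cytosolic heat shock chaperones (0.093) and in B and plasma cells (0.88), and replicate 4 in methylglyoxal detoxification (-0.055). Diabetic Apoe/RAGE null replicate 9 stood apart in small proteoglycans (-0.012) and in YAP and SRF targets (0.22), replicate 10 in the cell cycle (0.67) and replicate 11 in cardiac muscle (1.38).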

How the results depend on the processing

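The diabetic comparison called 110 probe sets. The count was 321 with B above 0, 253 with dim probe sets left out, 72 with 1 probe set per gene, 53 with array weights, 34 without replicates 11 and 12, 22 without replicates 9 and 10, and 0 both with only the 8 compared arrays (5819 at an unadjusted p under 0.05) and with the skeletal muscle score as a covariate (3497 at an unadjusted p under 0.05). Leaving out 1 array at a time gave 0 to 931. The cause was not tested. Median centring (153), a trended robust variance (114), quantile normalization (113) and leaving out probe sets that can cross-hybridise (116) kept the count within 1.5 times. All 1081 values of the 57 called genes under 19 other settings kept their direction, whereas 45 of 798 list medians changed sign. For the genes this was largely fixed in advance, since leaving out arrays cannot reverse groups that do not overlap. The non-diabetic contrast and the interaction stayed at 0 in the alternatives run, of which B above 0 for the interaction was chosen after seeing the data. No paired analysis was possible because the groups share no replicate number.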
